A study of Mus musculus with 4 samples.

Results

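The uroplakin genes were followed across 4 RNA sequencing libraries of mouse mammary cells. The 5 genes, Upk1a, Upk1b, Upk2, Upk3a and Upk3b, were taken by symbol from a deposited table of 54393 gene identifiers, and each symbol matched 1 identifier. Upk3a was chosen by its rise from 10 days to 5 weeks in both genotypes of these libraries, and the other 4 were added as its family. Time differences of the family are therefore given as a description with no test, and genotype was the comparison that was tested. Of the 5 genes, 4 passed the filter on low counts, and Upk3b did not.

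The libraries came from WT and Dnp63 cKO mice, with 1 library per genotype 10 days after tamoxifen and 1 per genotype 5 weeks after it, so n = 2 per genotype. The cKO was designed to lose DNp63, a shorter form of the transcription factor p63 that is made by basal epithelium. Recombination was by an inducible Cre driven from the keratin 14 promoter, which is active in basal epithelial cells. Tamoxifen (1.5 mg/ml) was given at 4 weeks of age, and the labels name it and the line iK14-Cre; DNp63 f/f for all 4 libraries, WT included, without saying which allele the WT animals lack. Dissociated cells carrying CD45, CD31 or ter119 were sorted away, and 100000 of the cells left over were used per library. The labels also name gland ages of 5 and 35 weeks, and 35 weeks conflicts with harvest 5 weeks after tamoxifen given at 4 weeks of age. The conflict could not be settled, so every 5-week value here carries the label's time after tamoxifen, and the animals' age at that time is uncertain. Whether each library is a separate animal or a pool is not said, and no genotype has a second library at a time point. The p-values therefore rest on how unequal the genotype difference was between time points, together with spread borrowed from other genes. That inequality may be partly technical, and spread between animals was not measured.

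Uroplakins are membrane proteins best known from the urothelium, the lining of the bladder and ureters, where they pack into the rigid plaques of the umbrella cells' outer membrane. Uroplakin Ia and Ib are tetraspanins, proteins that cross the membrane repeatedly. They pair with partners that cross it once: uroplakin Ia pairs with uroplakin II, and uroplakin Ib with uroplakin IIIa or IIIb. Without its tetraspanin a partner is held back in the endoplasmic reticulum, as shown for uroplakins Ib and IIIa in other cells. Upk3b is also used as a marker of mesothelium, the lining of body cavities.

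The 5 genes lie on 5 different chromosomes of GRCm38, and all are protein-coding. Upk3a (ENSMUSG00000022435.6) lies on the plus strand of chromosome 15 from 85017141 to 85022547 and has 1 annotated transcript of 1093 bases in 6 exons. Upk2 (ENSMUSG00000041523.3) lies on the minus strand of chromosome 9 from 44452715 to 44454976, with 1 transcript of 1083 bases in 5 exons. Upk1a (ENSMUSG00000006313.5) lies on the minus strand of chromosome 7 from 30603092 to 30612847, Upk1b (ENSMUSG00000049436.5) on the minus strand of chromosome 16 from 38773184 to 38800328, and Upk3b (ENSMUSG00000042985.7) on the plus strand of chromosome 5 from 136038496 to 136046487. No annotated gene on either strand overlaps any of the 5 (0 overlapping genes for each).

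The promoter of Upk3a is shown because this is the member with the largest difference between time points and because the deleted factor belongs to the p53 family. RefSeq's promoter table (GRCm38.p6) held 3 of the 5 genes, Upk1a, Upk3a and Upk3b. The 250 bases before the Upk3a start, chr15:85016891-85017140 on the plus strand, read 5′ to 3′ with motif matches in capitals:
Upk3a: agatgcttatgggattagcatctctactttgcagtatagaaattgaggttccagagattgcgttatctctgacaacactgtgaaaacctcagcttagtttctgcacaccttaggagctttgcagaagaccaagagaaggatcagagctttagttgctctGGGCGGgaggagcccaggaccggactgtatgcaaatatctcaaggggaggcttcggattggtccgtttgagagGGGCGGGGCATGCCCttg
Both strands of the window were searched for GGGCGG, known as the GC box, for TATAAA and for the half-site consensus of the p53 family. GGGCGG occurred 2 times, 91 to 86 and 18 to 13 bases before the start. The half-site matched 1 time, as GGGCATGCCC from 13 to 4 bases before the start, and it shares 1 base with the second GC box. TATAAA did not occur (0 matches). Among 32851 promoter windows of the same length, 32.7% held GGGCGG, 7.13% the half-site and 12.4% TATAAA. None of the 3 motifs occurred in the windows of Upk1a and Upk3b. A match is a string of letters and not a measured binding site, and no binding was measured here.

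The libraries held between 31714181 and 79122250 counts, the most in WT at 5 weeks. Trp63, the gene that holds the deleted form, stood at 46.8 CPM (WT) and 12.8 CPM (cKO) at 10 days, and at 160.5 CPM (WT) and 25.5 CPM (cKO) at 5 weeks, in the direction of the labels. CPM is the usual counts-per-million unit, with library sizes scaled here by the TMM method. Luminal epithelial markers such as the keratin genes Krt8 and Krt18 were present in all libraries, with 12 listed genes summing to between 7693 and 9673 CPM. Stromal cells were present too, since the 8 listed fibroblast markers added up to 21899 CPM in the lowest library and 49363 CPM in the highest. In such bulk samples fewer cells of a type and less RNA per cell cannot be told apart.

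Compared per length of exon, uroplakin transcripts in these libraries were mostly those of the single-pass partners Upk3a and Upk2. Averaged over the 4 libraries, Upk3a stood at 23.1 ± 22.0 CPM per kilobase (SD, n = 4), Upk2 at 12.5 ± 5.50, Upk1a at 1.11 ± 0.446, Upk1b at 0.803 ± 0.634 and Upk3b at 0.0244 ± 0.00551. The SD here spans both genotypes and both times. Upk3a and Upk2, neighbours in this order, overlapped across libraries, and so did Upk1a and Upk1b. Upk2 and Upk1a did not overlap: the lowest Upk2 level was 4.37 CPM per kilobase and the highest Upk1a level 1.57. The order within the family differed between libraries. Upk2 at 4.37 and Upk3a at 4.28 CPM per kilobase were level in WT at 10 days, Upk2 led in cKO at 10 days with 16.4 against 4.84, and Upk3a led at 5 weeks with 35.3 against 14.5 in WT and 47.9 against 14.9 in cKO.

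**Figure D1:**
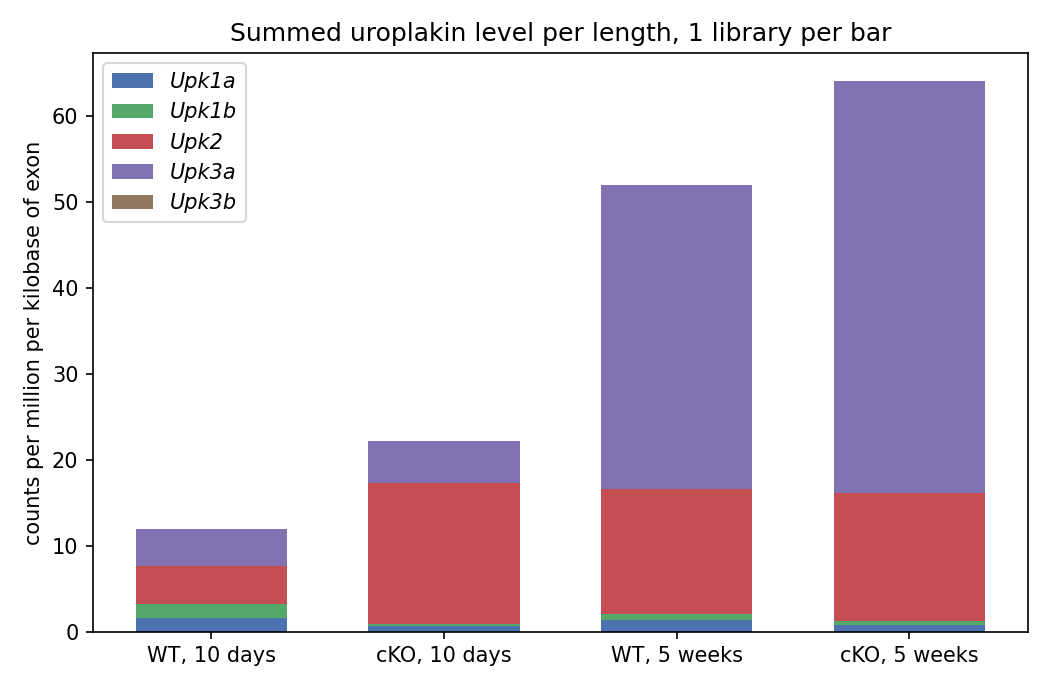
Stacked bars give the level of each uroplakin gene in CPM per kilobase of exon, 1 library per bar, with Upk3b too low to be seen. The sum runs from 12.0 in WT at 10 days to 64.1 in cKO at 5 weeks, and Upk3a takes 68.0% and 74.7% of it in the 5-week libraries.

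Summed over the family, the level was 12.0 CPM per kilobase in WT and 22.2 in cKO at 10 days, and 51.9 in WT and 64.1 in cKO at 5 weeks. Without Upk3a the sums were 7.68, 17.4, 16.6 and 16.2 in the same order. The 2 tetraspanin genes together made up a smaller part of the sum in every library than either Upk2 or Upk3a alone. Upk1a took 13.2% and Upk1b 14.3% in WT at 10 days, and at most 3.19% and 1.34% in the other 3 libraries. The transcript of the tetraspanin partner was thus below that of the single-pass gene in each library, for Upk1a against Upk2 and for Upk1b against Upk3a. Protein was not measured.

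Upk3a, which encodes the single-pass partner uroplakin IIIa, had 161 counts in WT and 168 in cKO at 10 days, and 2968 in WT and 1777 in cKO at 5 weeks. In CPM these were 4.67 and 5.29 at 10 days and 38.6 and 52.3 at 5 weeks. Both libraries at 5 weeks were far above both at 10 days, and within a time point the genotypes lay close together. The 5-week level was 8.26 times the 10-day level in WT (95% interval 7.05 to 9.74) and 9.90 times in cKO (8.45 to 11.7). These intervals are exact for 2 counts and, like all intervals given here, cover counting error only, with 1 library on each side. On the log2 scale with a prior count of 2 the time differences were 3.03 in WT and 3.30 in cKO. Over the 18917 genes tested, the same difference ran from -1.15 to 1.21 in WT and from -0.90 to 1.11 in cKO between the 5th and 95th percentiles. Ranked by the smaller of the 2 differences, Upk3a was number 31 of those genes. Since the gene was chosen for this difference, the rank describes the choice.

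The protein-coding genes on either side of Upk3a did not share this profile. Fam118a, 6401 bases downstream, was at 14.3 CPM (WT) and 15.0 CPM (cKO) at 10 days, and 14.7 CPM (WT) and 18.6 CPM (cKO) at 5 weeks. On the other side 5031439G07Rik, 28590 bases away, was at 91.6 and 95.9 CPM in WT and 96.3 and 87.6 CPM in cKO. These neighbours were looked up after the values of Upk3a were seen.

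**Figure D2:**
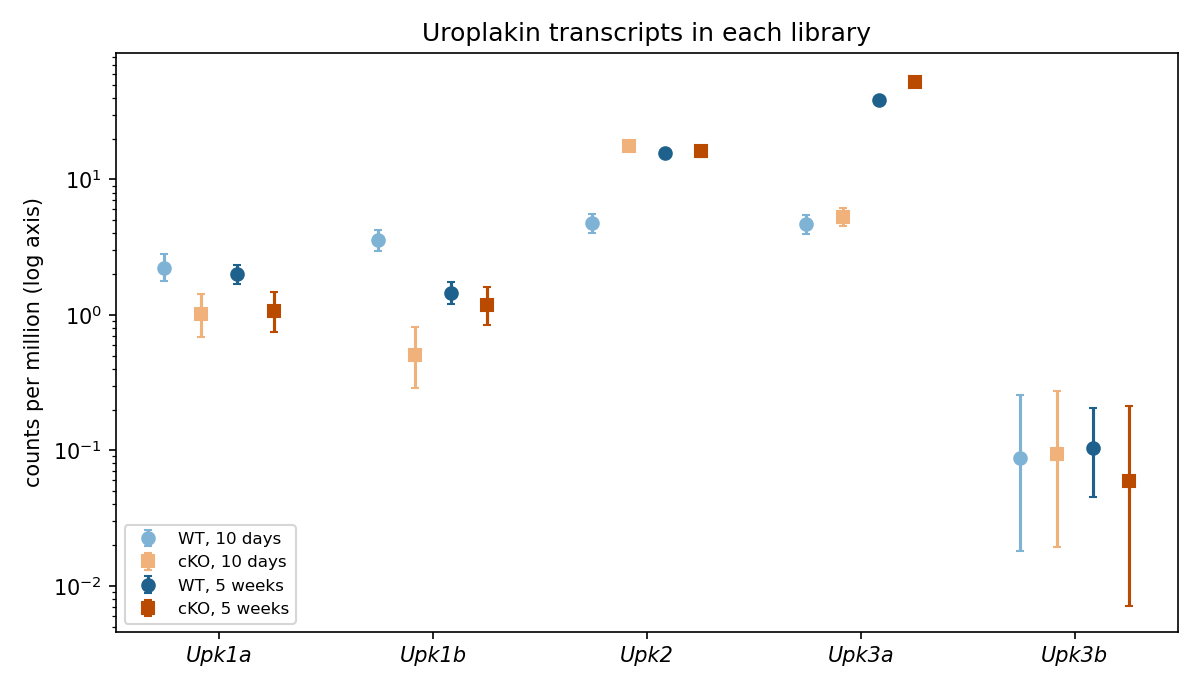
Points give CPM on a log axis for each uroplakin gene in each library, and bars the exact 95% counting intervals. Upk3a separates by time point, the low value of Upk2 is WT at 10 days, Upk1a separates by genotype, and Upk3b lies near 0.1 or below in all 4 libraries.

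The genotype comparison asked whether any uroplakin differed between cKO and WT with time point held constant. It called 0 of the 4 genes tested at an adjusted p of 0.05 (edgeR's quasi-likelihood test, Benjamini-Hochberg over all genes), where 0.0581% of all 18917 genes were called. An unadjusted p under 0.05 was reached by 0 of the 4, against 11.6% of all genes. With 1 residual degree of freedom and 2 libraries per genotype, a missed threshold does not show that levels were alike. A gene whose genotype difference was unequal between time points, such as Upk1b or Upk2, gets a larger SE for that reason. In 3 of the 4 the WT and cKO values did not overlap, 1 with cKO higher and 2 with cKO lower. Among all genes tested 45.9% did not overlap, 22.6% with cKO higher and 23.3% with cKO lower.

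**Figure D3:**
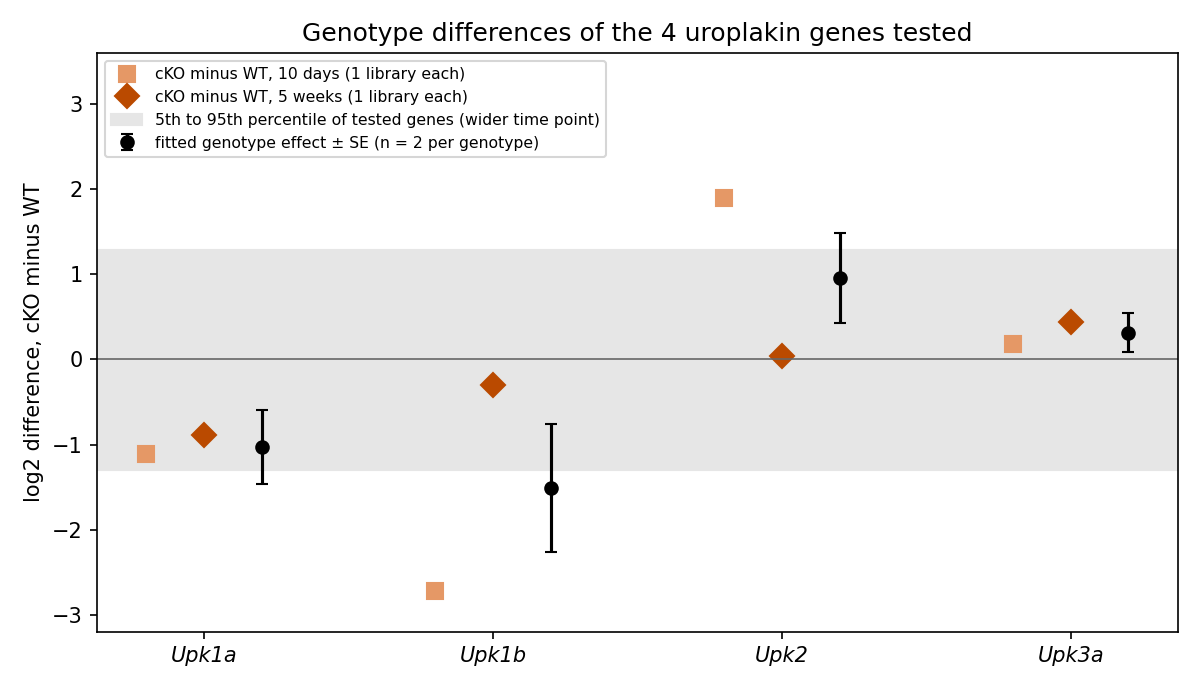
Squares and diamonds give the log2 difference cKO minus WT at 10 days and at 5 weeks (1 library each), and black points the fitted genotype effect with its SE (n = 2 per genotype). The grey band spans the 5th to 95th percentile of all tested genes at 10 days, -1.30 to 1.28, and of the squares and diamonds only the 10-day values of Upk1b (-2.72) and Upk2 (1.90) lie outside it, with the fitted value of Upk1b at -1.51.

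Upk1a, the tetraspanin that pairs with uroplakin II, was lower in both cKO libraries. Its 10-day counts were 77 (WT) and 32 (cKO) and its 5-week counts 154 (WT) and 36 (cKO), equal to 2.24 CPM (WT) and 1.01 CPM (cKO) at 10 days and 2.00 CPM (WT) and 1.06 CPM (cKO) at 5 weeks. The genotypes did not overlap, and within a genotype the time points were nearly level. The log2 fold change, cKO minus WT, was -1.03 (SE 0.434, with n = 2 in each group; adjusted p = 0.449 in edgeR, unadjusted 0.0585), so it did not pass. WT was 2.22 times cKO at 10 days (95% counting interval 1.45 to 3.46) and 1.89 times at 5 weeks (1.31 to 2.80). Over the 10 alternative fits and left-out libraries the log2 fold change stayed between -1.11 and -0.95, the narrowest range of the 4 genes.

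Upk1b, the tetraspanin partner of the uroplakin III proteins, was also lower in both cKO libraries, by unequal amounts. It had 123 and 112 counts in WT and 16 and 40 in cKO, or 3.57 CPM (WT) and 0.504 CPM (cKO) at 10 days, and 1.46 CPM (WT) and 1.18 CPM (cKO) at 5 weeks. The WT library at 10 days was the highest, the cKO library at 10 days the lowest, and the 5-week libraries lay close together between them. At 10 days WT was 7.09 times cKO (95% counting interval 4.20 to 12.8), and at 5 weeks 1.24 times (0.855 to 1.82), an interval that includes no difference. The log2 fold change was -1.51 (SE 0.749; adjusted p = 0.520 in edgeR). Without WT at 10 days it was -0.79, and without cKO at 5 weeks -2.33, in fits with no time term. Its time difference pointed down in WT (log2 -1.27) and up in cKO (1.16). The difference between the 2 could not be tested with 1 library per genotype and time.

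Upk2, the single-pass partner of uroplakin Ia, was low in 1 library. It had 163 and 1205 counts in WT and 564 and 546 in cKO, or 4.73 CPM (WT) and 17.8 CPM (cKO) at 10 days, and 15.7 CPM (WT) and 16.1 CPM (cKO) at 5 weeks. The WT library at 10 days stood apart and the other 3 were within a narrow band. At 10 days cKO was 3.75 times WT (95% counting interval 3.15 to 4.49), and at 5 weeks 1.03 times (0.925 to 1.14). The log2 fold change was 0.96 (SE 0.531; adjusted p = 0.572 in edgeR), and in fits with no time term it was 0.11 without WT at 10 days and 1.84 without WT at 5 weeks. Its time difference was 1.72 in WT and -0.14 in cKO on the log2 scale, so Upk2 did not share the profile of Upk3a in cKO.

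Upk3a showed little difference between genotypes beside its difference between time points. Its fitted genotype effect on the log2 scale was 0.31 (SE 0.228; adjusted p = 0.655 in edgeR), with log2 differences of 0.18 at 10 days and 0.44 at 5 weeks. The cKO to WT ratio was 1.13 at 10 days (95% counting interval 0.906 to 1.41) and 1.36 at 5 weeks (1.28 to 1.44). Leaving out a library needs a fit with no time term, in which the genotypes no longer hold the same time points. The estimate was then -0.42 without WT at 10 days, -2.05 without cKO at 5 weeks, 2.63 without WT at 5 weeks and, leaving out cKO at 10 days, 1.27.

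Upk3b, the other uroplakin III gene, was close to absent. Its counts were 3 (WT) and 3 (cKO) at 10 days, then 8 (WT) and 2 (cKO) at 5 weeks, at most 0.104 CPM, and the counting interval in each library overlapped those of the others. No difference between these libraries was detectable at this depth. Its neighbour Upk3bl, a uroplakin 3B-like gene 8005 bases downstream and not one of the 5, had a different profile: 22 and 757 counts in WT (0.639 and 9.85 CPM) against 0 and 3 in cKO (0 and 0.0884 CPM). At 10 days WT was 6.76-fold above a floor of 3 counts in the cKO library, and the lower 95% counting limit of the ratio was 5.05. At 5 weeks the ratio was 111 (95% counting interval 38.0 to 542). The genotype effect of Upk3bl had an adjusted p of 0.0818 in edgeR and did not pass, and this gene was singled out after its values were seen.

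Genes that work with uroplakins in the urothelium were examined as lists drawn from textbook knowledge. Of 9 tested regulators of urothelial differentiation 0 were called for genotype and 0 for time (0.0634% of all genes were called for time), with median log2 fold changes for genotype of -0.11 against -0.01 for all genes. An unadjusted p under 0.05 for genotype was reached by 4 of the 9, against 11.6% of all genes. DESeq2 called 3 of the 9 for genotype, where it called 513 of all 18917 genes. With no filter on low counts, 4 of 10 were called, where 1235 of all 33332 genes were. Of the genes with an unadjusted p under 0.05, Pparg was higher in cKO (log2 fold change 1.20, adjusted p = 0.344 in edgeR) and the other 3 were lower. Those 3 had the lowest estimates and were picked out after their values were seen. They were the epithelial factor genes Grhl3 (log2 fold change -3.31, adjusted p = 0.191 in edgeR), Ehf (-1.54, adjusted p = 0.123) and Klf5 (-1.02, adjusted p = 0.237). Grhl3 was at 6.36 CPM (WT) and 1.13 CPM (cKO) at 10 days, and 21.7 CPM (WT) and 1.27 CPM (cKO) at 5 weeks, so the genotypes did not overlap. The most abundant were Elf3, an epithelial ETS factor, at 156.9 CPM (WT) and 161.4 CPM (cKO) at 10 days, and 454.3 CPM (WT) and 151.8 CPM (cKO) at 5 weeks, and the retinoid receptor gene Rxra at 96.8 and 130.4 CPM against 112.6 and 95.9 CPM. Of 6 tested genes of uroplakin vesicle traffic, again 0 were called in either comparison (median -0.05 for genotype). The most abundant of these were the small GTPase genes Rab8a, at 50.2 and 57.4 CPM in WT and 52.0 and 50.7 CPM in cKO, and Rab11a, at 41.9 and 51.5 CPM in WT and 39.2 and 52.7 CPM in cKO. Snx31, a sorting nexin of uroplakin turnover, was under the filter, at no more than 0.325 CPM in any library. None of these genes showed a difference between time points of the size seen for Upk3a.

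Among 11 keratins and surface genes of the urothelium, 1 was called, lower in cKO and higher at 5 weeks: Krt13, a keratin of intermediate urothelial and of non-cornified squamous layers, at 54.0 and 357.6 CPM in WT against 0.661 and 5.15 CPM in cKO (genotype log2 fold change -6.21, adjusted p = 0.00998; time 2.82, adjusted p = 0.0411, both in edgeR). The time call was lost with DESeq2 size factors, upper-quartile factors or no genotype term and without any 1 library, and the genotype call with no time term and without cKO at 10 days, WT at 5 weeks or cKO at 5 weeks. Other settings called more of the 11 genes. DESeq2 called 4 for genotype and 3 for time, where it called 513 and 192 of all 18917 genes. With no filter 4 were called for genotype and 4 for time, against 1235 and 638 of all 33332. By limma-voom 2 were called for genotype, against 29 of all 18917. The most abundant of the list were Krt8, a simple epithelial keratin, which ranged from 2398 to 3429 CPM, and Krt5, a basal cell keratin. Krt5 was at 1018 CPM (WT) and 123.0 CPM (cKO) at 10 days, and 7826 CPM (WT) and 235.8 CPM (cKO) at 5 weeks (genotype log2 fold change -4.05, adjusted p = 0.215 in edgeR). Krt20, the keratin of umbrella cells, was low throughout, at 0.697 CPM (WT) and 0.441 CPM (cKO) at 10 days, and 1.73 CPM (WT) and 1.53 CPM (cKO) at 5 weeks. It lay higher at 5 weeks in both genotypes and did not pass (time log2 fold change 1.54, adjusted p = 0.748 in edgeR; chosen after its values were seen). Of 27 tested tetraspanin genes other than the uroplakins, 0 were called in either comparison, with median log2 fold changes of 0.07 for genotype and 0.03 for time. Cd9 and Cd63, the most abundant, ranged from 397.8 to 520.6 CPM and from 254.7 to 312.9 CPM.

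Markers of other cells that can carry uroplakins were set beside these values. Stratified squamous markers summed to 1019 CPM (WT) and 178.5 CPM (cKO) at 10 days, and to 5270 CPM (WT) and 283.9 CPM (cKO) at 5 weeks. Of 13 tested, 5 were lower in cKO and 2 higher at 5 weeks by the adjusted test, among them Krt13, Krt6b, Dsg3 and Krtdap, and the median log2 fold change was -3.30 for genotype and 1.81 for time. The 5 genotype calls became 3 with upper-quartile factors, 9 with no filter, 8 by DESeq2, and 0 with no time term or without cKO at 10 days, WT at 5 weeks or cKO at 5 weeks. The 2 time calls became 1 with DESeq2 size factors or upper-quartile factors, 3 by limma-voom, 6 with no filter or by DESeq2, and 0 with no genotype term or without any 1 library. Over all genes, the genotype calls were 11 of 18917 by edgeR, 1235 of 33332 with no filter and 513 of 18917 by DESeq2. For time these were 12, 638 and 192. The sum of the squamous markers was higher at 5 weeks in both genotypes, and higher in WT at both time points. Upk3a was higher at 5 weeks in both genotypes, and higher in cKO at both time points. Upk1a and Upk1b were higher in WT at both time points, and within WT they were lower at 5 weeks. The part of squamous markers in the uroplakin values was not tested. Within cKO the sum differed 1.59-fold between time points, with Krt6a, its largest member, at 110.1 CPM at 10 days and 89.0 CPM at 5 weeks. Other members differed more in cKO: Dsg3 was at 0.913 and 9.48 CPM, Krtdap at 0.378 and 4.04, Krt10 at 2.64 and 30.5, Krt1 at 0.661 and 15.9 and Krt13 at 0.661 and 5.15. Their log2 differences in cKO, 2.88 to 4.50, were the largest of the list and lay on both sides of the 3.30 of Upk3a. The other tested members had lower log2 differences in cKO. These were 1.96 for Krt15, 0.88 for Krt6b, 0.67 for Ivl, 0.65 for Sbsn, 0.63 for Krt4, 0.61 for Sprr1a, -0.07 for Lor and -0.31 for Krt6a. In WT, where Upk3a was at 3.03, the order was different. Dsg3 was at 3.38, Sprr1a 2.99, Krtdap 2.98, Krt13 2.73, Krt6a 2.69, Krt15 2.52 and Ivl 2.15. Krt10 was at 1.85, Krt4 1.24, Krt1 1.19, Sbsn 0.91, Lor 0.65 and Krt6b 0.60. Of 8 mesothelial markers tested 0 were called, and the list summed to between 41.2 and 116.5 CPM. The most abundant of that list were Rspo1, at 91.2 CPM (WT) and 2.83 CPM (cKO) at 10 days, and 4.15 CPM (WT) and 3.77 CPM (cKO) at 5 weeks, and Muc16, at 5.34 CPM (WT) and 51.2 CPM (cKO) at 10 days, and 29.1 CPM (WT) and 23.2 CPM (cKO) at 5 weeks. Msln was also highest in WT at 10 days (4.56 CPM against 0.409 to 0.825 in the others). WT at 10 days was high in Rspo1 and Msln and low in Muc16, and other mesothelial markers were not highest in that library. Cldn15 was lowest in that library (5.23 CPM against 6.48 to 7.92 in the others). Bnc1 was at 9.14 CPM there and highest in WT at 5 weeks, at 68.6 CPM. Wt1 was at 0.174 CPM in WT at 10 days and highest in WT at 5 weeks, at 0.872 CPM. Lrrn4 was at no more than 0.0630 CPM. The part of mesothelial RNA in the uroplakin values was not tested. Markers of the cells sorted away (10 genes, 0 called) summed to between 131.1 and 260.1 CPM, highest in cKO at 5 weeks, and markers of other glands (1 of 7 tested, Lcn2, 0 called) included 3 genes at 0 counts in every library.

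**Figure D4:**
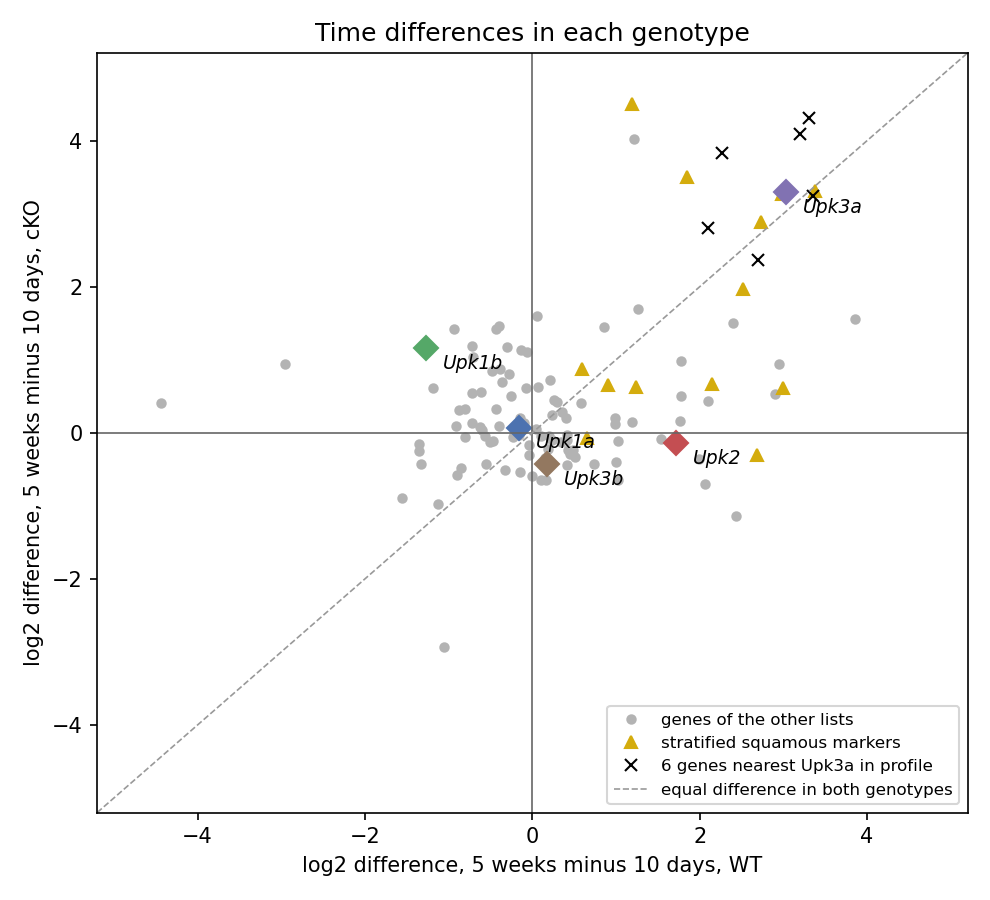
Each point sets the log2 difference 5 weeks minus 10 days in WT (horizontal) against that in cKO (vertical), for the uroplakins (diamonds), listed marker genes and the 6 genes nearest Upk3a in profile (crosses). Upk3a lies near the diagonal at 3.03 and 3.30, Upk2 near the horizontal axis at 1.72 and -0.14, and Upk1b in the opposite quadrant at -1.27 and 1.16.

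The genes whose profile over the 4 libraries was most like that of Upk3a were found by the root mean square distance between mean-centred log2 CPM values, among 15020 named genes. They were Aadacl3 (distance 0.214), Trim12a (0.300), Lypd6 (0.366), Myo7a (0.377), Trim58 (0.386) and Mrgprh (0.429), against a median distance of 1.60. Trim12a, a tripartite motif gene with close paralogs between which reads can be split, was at 0.581 CPM (WT) and 0.598 CPM (cKO) at 10 days, and 5.69 CPM (WT) and 10.9 CPM (cKO) at 5 weeks. The myosin gene Myo7a was at 1.48 and 6.51 CPM in WT and 1.57 and 11.3 CPM in cKO. The other 4 rest on few counts, with Aadacl3 and Trim58 at 0 counts in both 10-day libraries and at most 32 and 31 counts at 5 weeks. With a prior count of 0.5 in place of 2, 4 of the 6 were still among the nearest. The other uroplakins were farther away: Upk2 was at a distance of 1.34 (rank 941 among the candidates), Upk3b at 1.68, Upk1a at 1.73 and Upk1b at 1.93, the last 3 above the median.

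Upk2 had closer matches. By the same measure, added after its values were seen, the nearest genes were Zfp973 (distance 0.0858), Pir (0.0867), Ccn3 (0.0876), Ahnak2 (0.106), Plac9a (0.109) and BC035947 (0.125). Zfp973, Plac9a and BC035947 rest on low levels, at 0.610, 0.697 and 0.610 CPM in WT at 10 days and no more than 2.68 CPM in any library. Pir, which encodes the iron-binding nuclear protein pirin, was at 4.73 CPM (WT) and 17.8 CPM (cKO) at 10 days, and 15.8 CPM (WT) and 14.1 CPM (cKO) at 5 weeks. Ccn3, which encodes a matricellular protein, was at 9.99 CPM (WT) and 36.0 CPM (cKO) at 10 days, and 29.1 CPM (WT) and 29.2 CPM (cKO) at 5 weeks. Among the listed genes the nearest to Upk2 were Rab27b, the GTPase of uroplakin vesicle delivery (0.238; 10.5 and 24.0 CPM in WT, 25.3 and 28.0 CPM in cKO), Tspan1, a tetraspanin gene (0.245; 17.4 and 74.5 CPM against 63.4 and 85.5), and Pparg, a nuclear receptor of urothelial and fat cell differentiation (0.272; 5.98 and 12.2 CPM against 20.5 and 18.9). In each of them WT at 10 days was the lowest of the 4 libraries, which follows from choosing them by likeness to Upk2. None of the 3 was called for genotype.

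**Figure D5:**
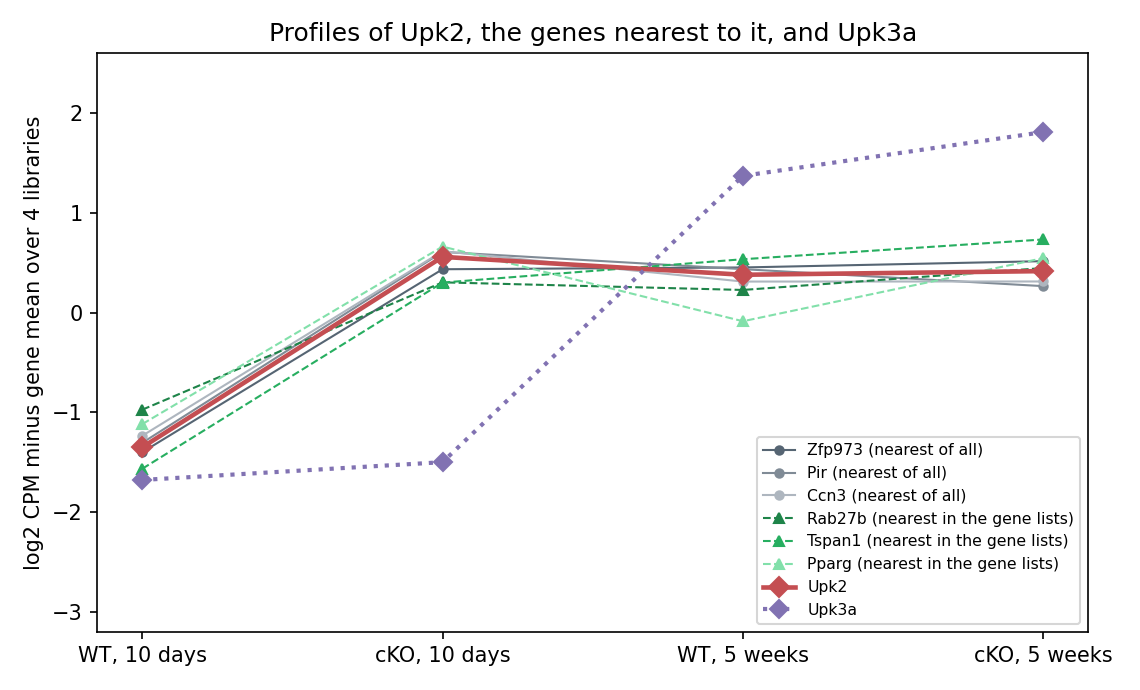
Lines give log2 CPM minus the gene's mean over the 4 libraries for Upk2, its 3 nearest genes, its 3 nearest genes from the lists, and Upk3a. Upk2 and its nearest genes are low in WT at 10 days alone, and Upk3a is low in both 10-day libraries.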

How the data were processed

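RNA sequencing libraries of sorted mouse mammary cells (1 per genotype and time point) were analysed from the gene table the authors deposited, which holds estimated counts, all whole numbers, in 4 columns (0 further sample columns). The submitters' processing notes name Salmon and GRCm38 but give neither role nor version. Annotation and strand setting are not given in the sources used here, and Salmon's division of shared reads makes counts of close paralogs uncertain. All 54393 identifiers matched GENCODE M21, which gave symbols, positions and exon lengths. Groups came from the genotype label.

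Genes were filtered with filterByExpr (minimum count 10), leaving 18917 with 99.9% of counts. After TMM scaling, a robust quasi-likelihood model (edgeR 4.0.16 under R 4.3.3) with terms for time and genotype was fitted across all genes. Its p-values were adjusted by Benjamini-Hochberg and called under 0.05. Each SE was computed as the size of the log2 fold change over the root of its F. The common biological coefficient of variation was 0.286. DESeq2 1.42.0 and limma-voom (limma 3.58.1) were alternatives. Count ratios carry exact conditional binomial 95% intervals. CPM per kilobase uses the union of a gene's exons. Time acts as the block, because a WT and a cKO library share every time point.

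The members and gene lists were chosen with earlier results of these data known. Named were the 5 uroplakins, from each list up to 4 passing genes with the smallest p or, with fewer than 2 passing, the 2 of highest mean CPM, and the 6 genes nearest Upk3a. Outside this rule, Krt20, Upk3bl, the neighbours of Upk3a, the genes nearest Upk2, Grhl3, Ehf, Klf5, Pparg and Snx31 were named after their values were seen. So were the mesothelial markers Msln, Wt1, Lrrn4, Cldn15 and Bnc1. The squamous markers Krt6a, Krt10, Krt1, Krt15, Ivl, Sbsn, Krt4, Sprr1a and Lor were named in the same way. For luminal, fibroblast, sorted-away and gland markers only summed levels or counts are given. The 9 basal markers summed to 5787 and 16643 CPM in WT and to 2253 and 2401 CPM in cKO at 10 days and 5 weeks. For genotype 0 were called by edgeR, 4 by DESeq2 (513 of all 18917 genes) and 4 with no filter (1235 of all 33332). Krt5 and Krt14 were the largest in WT at 5 weeks, at 7826 and 6510 CPM against 235.8 and 321.0 CPM in cKO. Krt17 and Trp63 were also lower in cKO at both time points. Acta2, Mylk, Myh11, Oxtr and Cnn1 were lower in cKO at 10 days and higher at 5 weeks. Except for Krt5, Krt14 and Trp63, these genes were named after their values were seen.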

Additional observations from a re-analysis of the deposited data

Results flagged for a closer look

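Several uroplakins had differences of opposite sign in the groups compared, with 1 library on each side and no test of the difference. The log2 difference 5 weeks minus 10 days was -1.27 in WT and 1.16 in cKO for Upk1b, and 1.72 in WT and -0.14 in cKO for Upk2. For Upk1a it was -0.15 in WT and 0.07 in cKO, and both counting intervals of the ratio included 1. The interval of Upk2 in cKO also included 1 (0.804 to 1.02). For Upk3b, with at most 8 counts in a library, the time difference was 0.17 in WT and -0.42 in cKO, and the genotype difference cKO minus WT was 0.08 at 10 days and -0.52 at 5 weeks. None of these differences between groups was tested, since 1 library per genotype and time leaves no residual for it.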

How the results depend on the processing

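Across 10 alternatives for each tested uroplakin, 0 of the 4 genes were called for genotype. The direction held for Upk1a (-1.11 to -0.95), Upk1b (-2.33 to -0.79) and Upk2 (0.11 to 1.84). Upk3a reversed without WT replicate 1 (10 days; -0.42) and without cKO replicate 2 (5 weeks; -2.05). These fits have no time term, and its range over the left-out libraries was -2.05 to 2.63. With no filter Upk3b could be fitted (-0.37, adjusted p = 0.971). Without the time term (no replicate block) edgeR's log2 fold changes were -1.03, -1.56, 0.72 and 0.41 for Upk1a, Upk1b, Upk2 and Upk3a, with 0 genes called overall (2182 at an unadjusted p under 0.05) and 0 of the list genes. The number of genes called for genotype was 11 by edgeR, and 5 with DESeq2's size factors, 3 with upper-quartile factors, 1235 with no filter, 513 by DESeq2, 29 by limma-voom and 0 to 61 without a library. For time it was 12, and 638 with no filter, 192 by DESeq2, 39 by limma-voom, 1 with no genotype term and 0 to 19 without a library. Of the listed genes, 3 were called for genotype with upper-quartile factors, 25 with no filter, 20 by DESeq2 and 0 to 8 without a library. For time these were 1 with DESeq2's size factors, 1 with upper-quartile factors, 17 with no filter, 12 by DESeq2, 0 with no genotype term and 0 to 1 without a library. The cause of these differences was not tested. Differences within a time point or genotype and levels per length stayed within their counting interval or SD under other scalings, prior counts and lengths. The alternatives for time without a library and for differences within a time point were added after seeing the data. Counts limit Upk3b, with at most 8 per library.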
